A study of Monodelphis domestica and Mus musculus with 2 samples.

Results

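The neurofilament genes are Nefl, Nefm and Nefh, which encode the light, medium and heavy neurofilament chains, and Ina, which encodes α-internexin. These 4 genes were looked up by symbol, whatever the case, in the feature list of each species. All 4 were found among the 61317 features of the mouse, and NEFL, NEFH and INA were found among the 30613 features of the opossum. No opossum feature carried the symbol NEFM, and 11598 opossum features carried a symbol at all, so NEFM was not analysed here in the opossum. Symbols are written in capitals for the opossum and with only the first letter capital for the mouse.

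The study set the primary visual cortex (V1) of a marsupial, Monodelphis domestica (the gray short-tailed opossum), beside that of the mouse, and asked how similarly their cortical cells are organized. The measurements are Stereo-seq counts, in which a tissue section is laid on a chip of barcoded spots and unique molecular identifiers (UMIs) are summed over segmented cells. One 10 µm section was profiled per species, from 1 male opossum of about 6 months and from 1 male wild-type C57BL/6J mouse of about postnatal day 40. The blocks differed in RNA integrity number, 7.1 in the opossum and above 9 in the mouse. Species, age, RNA integrity and genome annotation differed together and cannot be told apart.

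Neurofilaments are the intermediate filaments of neurons, packed along axons, where they set the calibre of the fibre and with it the speed of conduction. The light chain and α-internexin build the core of the filament, and the medium and heavy chains co-assemble with it and project phosphorylated side arms from its surface. In neocortex, antibodies to the non-phosphorylated heavy chain are a classic stain for large pyramidal neurons, above all those of layer 5 that project out of the cortex, and parvalbumin interneurons are also known for their neurofilament content.

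In the mouse genome (GRCm39), Nefl lies on the plus strand at chr14:68321268-68326544 and Nefm on the minus strand at chr14:68320039-68362305, so that Nefl falls inside the annotated span of Nefm. Exons of the pair share 1152 bases on opposite strands, although the canonical Nefm transcript, at chr14:68356732-68362305, lies clear of Nefl. Whether strand was used in counting is not given in the sources used here, so reads of the shared bases could be split between both genes and their values are uncertain to that extent. Nefh lies on the minus strand at chr11:4888740-4898130 and overlaps Ap1b1, and Ina lies on the plus strand at chr19:47003069-47013770 and overlaps Nt5c2. Both of these neighbours are on the opposite strand and share 0 exon bases with them.

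After the authors' quality filter, V1 held 4806 opossum cells in 3 regions with 6933475 UMIs (median 1326 per cell) and 9127 mouse cells in 4 regions with 12522687 UMIs (median 1305 per cell). Each region is a cortical column that begins with layer 2/3 and ends with layer 6, and depth is given as a share of that height, or as bins 1 (uppermost) to 10 (deepest) of equal height. Regions of 1 animal are not biological replicates, so ranges over regions show the spread within an animal. Per the paper, coronal slices were embedded together and the regions of each species came from more than 1 section. The spread over regions can therefore include slice position. Intervals are 95% and cover counting error only, and no test was possible with 1 animal per species. Levels are UMIs of a gene per 10000 UMIs of all genes. The cells were labelled by their transcriptome, from nuclei of the same species, which makes differences between subclasses a description. Markers followed the labels for the most part: Rorb was 12.2-fold higher in opossum IT_B cells and 4.62-fold higher in mouse L4 cells than in all other labelled cells. Over the other glutamatergic cells, the fold of Fezf2 was 2.88 in mouse L5PT cells but 1.08 (0.596–1.82) in opossum L5PT cells. Bcl11b was higher in opossum L5PT cells by a fold of 4.44 (3.39–5.74), and Tshz2, a marker of L5NP cells, had 0 UMIs in opossum L5NP cells. No opossum feature carried the symbol Pvalb or Slc17a7, so the opossum Pvalb label could not be checked with its own marker. Of the microglial markers, opossum microglia had 0 UMIs of C1qa and 4 of Cx3cr1.

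All members were measured in V1 of their species. NEFL, the core light chain, stood at 6.51 per 10000 (6.32–6.70) in opossum V1, from 4513 UMIs, with 6.44, 6.45 and 6.60 in the 3 regions. INA, the other core subunit, stood at 1.62 (1.52–1.71), and NEFH, the heavy side-arm chain, at 0.750 (0.687–0.817). In mouse V1 Nefl reached 3.95 (3.84–4.06) with regions from 3.59 to 4.34, and Ina reached 1.20 (1.14–1.26) with regions from 1.17 to 1.28. The mouse side-arm chains were Nefm at 3.06 (2.97–3.16), with regions from 2.63 to 3.76, and Nefh at 0.310 (0.280–0.342), with regions from 0.279 to 0.353. For each of the 3 genes found in both animals, every opossum region was above every mouse region, but the species come from different annotations and denominators, so these levels are side by side and not a measured fold.

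Single cells caught few of these transcripts. At least 1 UMI of NEFL was found in 47.7% of opossum V1 cells, of INA in 17.2% and of NEFH in 8.61%. In the mouse the shares were 33.3% for Nefl, 12.3% for Ina and 3.34% for Nefh, and Nefm was seen in 2282 of 9127 cells. With each cell thinned to 300 UMIs (156 opossum cells and 130 mouse cells were too shallow), the shares were 16.8%, 4.80% and 2.24% in the opossum for NEFL, INA and NEFH, and 10.3%, 7.95%, 3.22% and 0.822% in the mouse for Nefl, Nefm, Ina and Nefh. No member had a UMI in 42.1% of opossum and 45.0% of mouse cells, and 72 opossum cells held all 3 measured members while 8 mouse cells held all 4.

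These neuron genes were counted at about the same level in cells labelled as glia or vessel as in cells labelled as neurons. NEFL was 6.14 per 10000 in the glutamatergic subclasses of the opossum and 7.07 in the non-neuronal ones (oligodendrocytes, astrocytes, oligodendrocyte precursors, endothelial cells and microglia), a fold of 0.868 (0.808–0.933). The same fold was 0.931 (0.803–1.08) for INA and 0.933 (0.746–1.17) for NEFH. In the mouse it was 1.02 (0.941–1.10) for Nefl, 0.881 (0.769–1.01) for Ina, 1.06 (0.969–1.15) for Nefm and 1.22 (0.913–1.66) for Nefh. None of the 7 values reached 1.5-fold, against 12.4% of all opossum and 4.28% of all mouse genes with at least 100 UMIs. Mouse Slc17a7, the vesicular glutamate transporter of cortical pyramidal cells, was compared with all other labelled cells, GABAergic ones included. Its fold in glutamatergic cells over those was 0.990 (10.4 against 10.5).

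The share of cells with a UMI gave the same picture. In the opossum, NEFL was seen in 48.6% of glutamatergic cells (median 1483.5 UMIs) and in 45.0% of non-neuronal cells (median 1092), and after thinning in 16.3% and 16.8%. Mouse Nefl was seen in 33.5% of glutamatergic cells (median 1338 UMIs) and 33.3% of non-neuronal cells (median 1267), and after thinning in 10.4% and 8.64%. The shares in glutamatergic cells were thus close to those in non-neuronal cells, and were not read as expression in single cells. Part of the opossum non-neuronal group carried conflicting labels, since 331 of its 565 oligodendrocytes had a glutamatergic class label, against 104 of 588 in the mouse. So did 133 of 495 opossum astrocytes, 70 of 100 oligodendrocyte precursors, 50 of 65 endothelial cells and 15 of 32 microglia. Both labels were non-neuronal for 649 of 1257 opossum cells and 1414 of 1674 mouse cells of the group. With non-neuronal cells restricted to those called so by both labels, the folds were 0.914 for NEFL, 1.06 for INA and 1.02 for NEFH in the opossum, and 1.04 for Nefl, 0.895 for Ina, 1.09 for Nefm and 1.55 (1.10–2.24) for Nefh in the mouse.

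**Figure D1:**
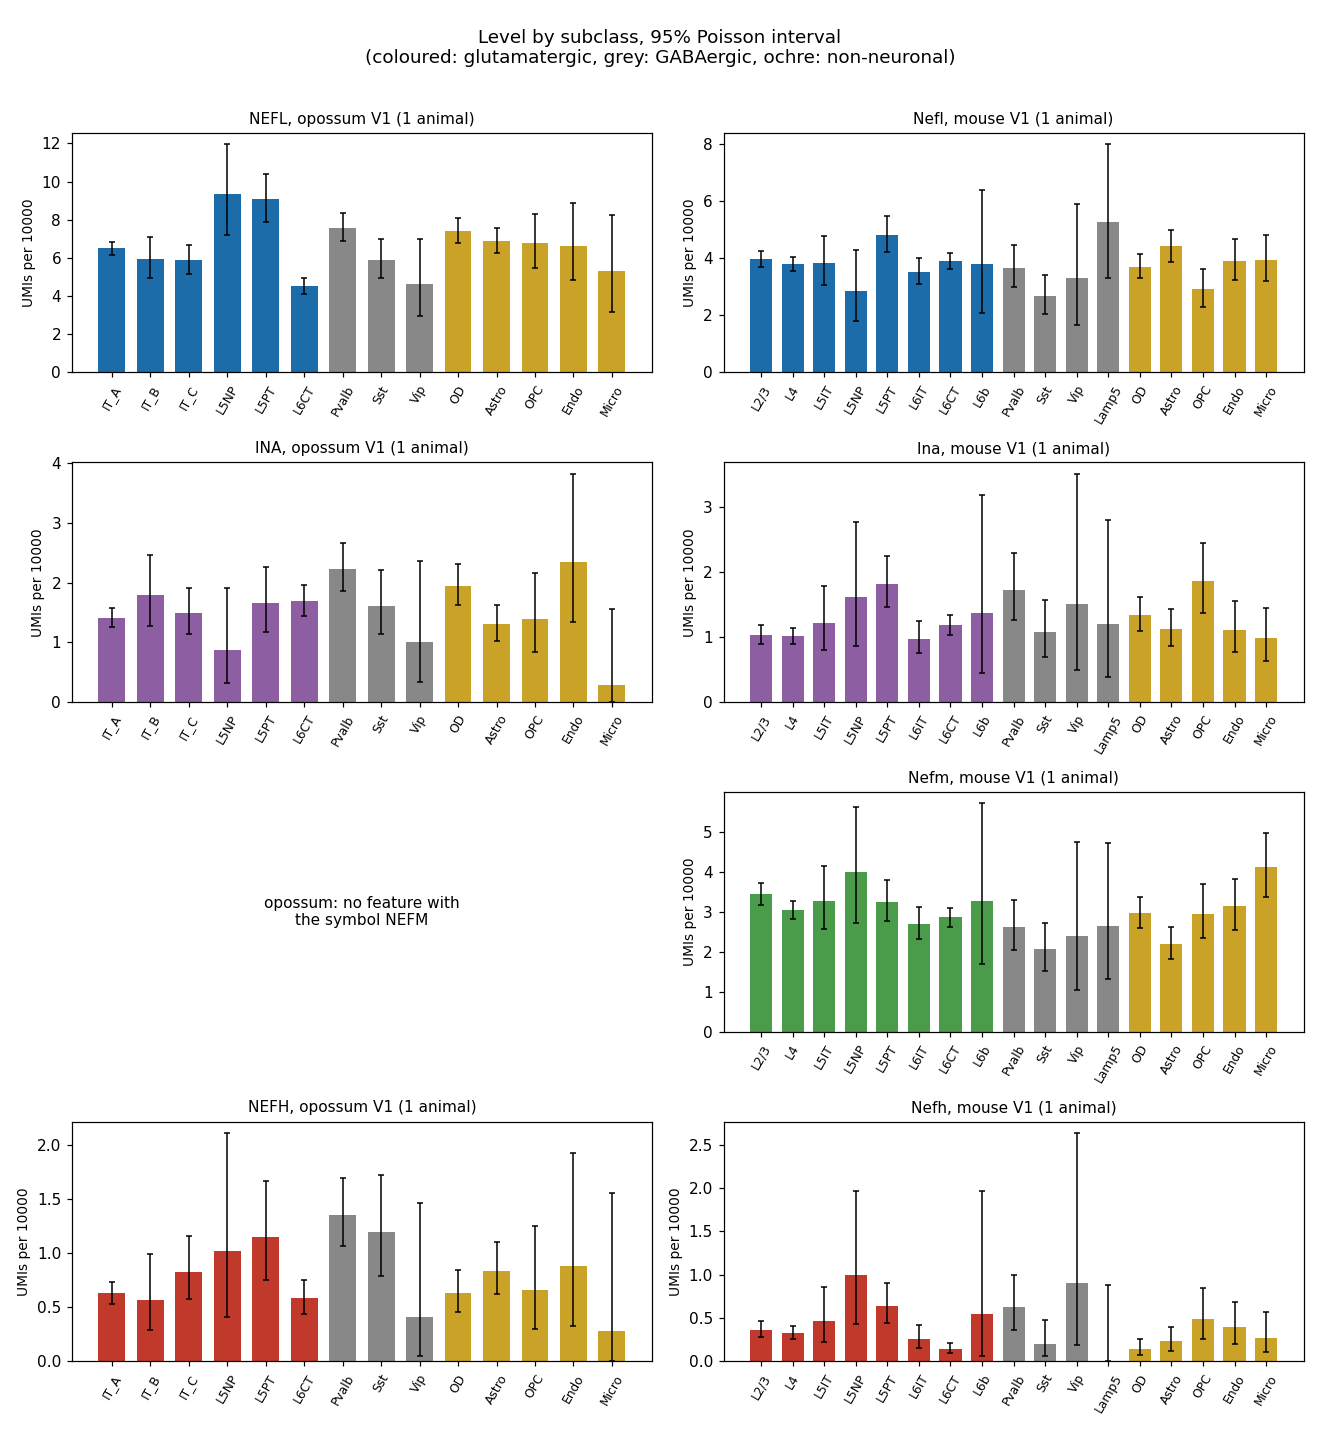
Level of each neurofilament gene (UMIs per 10000, vertical axis) in each V1 subclass with at least 25 cells, with bars coloured for glutamatergic, grey for GABAergic and ochre for non-neuronal subclasses and lines for the 95% Poisson interval. The bars of non-neuronal subclasses stand about as high as those of neurons, and opossum NEFL is highest in L5NP (9.36) and L5PT (9.07) and lowest in L6CT (4.52).

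Across subclasses the light chain spanned 2.07-fold in the opossum and 1.97-fold in the mouse. Opossum NEFL was highest in 2 layer 5 subclasses, near-projecting L5NP neurons at 9.36 (7.21–12.0) and pyramidal tract L5PT neurons at 9.07 (7.90–10.4), whose intervals overlap. Next came parvalbumin (Pvalb) interneurons at 7.58 and oligodendrocytes at 7.43, followed by the intratelencephalic subclasses IT_A at 6.50, IT_B at 5.94 and IT_C at 5.89. It was lowest in corticothalamic L6CT neurons of layer 6, at 4.52 (4.11–4.96), 0.682-fold (0.614–0.755) of the other glutamatergic subclasses. Mouse Nefl was highest in Lamp5 interneurons at 5.29 (3.31–8.003) and in L5PT neurons at 4.83 (4.24–5.48), and lowest in Sst interneurons at 2.68 (2.07–3.41), with 10 of the 17 subclasses between 3.53 and 3.97. In the mouse L6CT did not stand apart for the light chain, with a fold of 0.999 over the other glutamatergic subclasses.

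α-Internexin followed another order. Opossum INA was 2.35 (1.35–3.82) in endothelial cells and 2.23 (1.86–2.66) in Pvalb interneurons, and 1.69 in L6CT and 1.65 in L5PT neurons. Its lowest value was 0.279 (0.00706–1.55) in microglia, from 1 UMI in 32 cells. Mouse Ina was highest in oligodendrocyte precursors at 1.86 (1.37–2.45) and L5PT neurons at 1.82 (1.47–2.24), with Pvalb interneurons at 1.73, and lowest in L6IT neurons at 0.975. The top values of each species overlap in their intervals.

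The heavy chain had high values in some interneurons and layer 5 neurons of both species, and mouse Nefm followed another order. Opossum NEFH was 1.35 (1.06–1.69) in Pvalb interneurons, 1.19 (0.792–1.72) in Sst interneurons and 1.14 (0.754–1.67) in L5PT neurons, intervals that overlap. It was 0.627 in IT_A and 0.581 in L6CT neurons, below endothelial cells at 0.883 and astrocytes at 0.833. Over all GABAergic subclasses NEFH was 1.25, against 0.668 over all glutamatergic ones, a fold of 1.87 (1.48–2.35). By region the fold was 1.79, 2.29 and 0.879, so that region 3, with 8 GABAergic UMIs, went the other way. A glutamatergic class label was carried by 142 of 354 Pvalb, 83 of 171 Sst and 19 of 38 Vip cells of the opossum, and its part in this fold was not tested. Mouse Nefh was 0.997 in L5NP neurons, from 8 UMIs, 0.641 (0.439–0.905) in L5PT neurons, from 32 UMIs, and 0.625 in Pvalb interneurons, from 17 UMIs. Mouse Vip interneurons stood at 0.902, from 3 UMIs, oligodendrocyte precursors at 0.492 and Sst interneurons at 0.206, from 5 UMIs. Among the well-sampled neurons Nefh was lowest in L6CT, at 0.145 (0.0972–0.208) against 0.374 in the other glutamatergic subclasses. That was a fold of 0.388 (0.254–0.574), and mouse oligodendrocytes also stood at 0.145. In mouse Lamp5 interneurons 0 UMIs of Nefh were counted, which allows a level of up to 0.886. Nefm was highest in mouse microglia at 4.11 (3.36–4.98) and L5NP neurons at 3.99, stood at 3.44 (3.18–3.72) in L2/3 and 3.25 (2.77–3.79) in L5PT neurons, and was lowest in astrocytes at 2.18 (1.81–2.61) and Sst interneurons at 2.06.

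Among interneurons, Pvalb cells were set against the other GABAergic subclasses. In the opossum the folds were 1.33 (1.11–1.61) for NEFL, 1.48 (1.04–2.14) for INA and 1.28 (0.828–2.03) for NEFH, so 0 of 3 reached 1.5-fold, where 7.26% of all genes did. In the mouse they were 1.19 for Nefl, 1.20 for Nefm, 1.52 (0.967–2.42) for Ina and 2.48 (1.01–6.64) for Nefh, where 2.93% of genes with at least 100 UMIs reached 1.5-fold. The mouse Nefh value rests on 17 UMIs in Pvalb cells and 8 in the others, and neither Nefh nor Ina had 100 UMIs in these cells.

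The make-up of the neurofilament counts was read as UMIs of each member per Nefl UMI, a ratio within the same cells that needs no common denominator. In the mouse, Nefm per Nefl was 0.776 over V1, 0.866 (0.778–0.965) in L2/3 neurons, 0.672 (0.547–0.824) in L5PT neurons and 0.494 (0.394–0.617) in astrocytes. Nefh per Nefl was 0.0785 over V1, 0.133 (0.0888–0.193) in L5PT neurons, 0.170 (0.0953–0.286) in Pvalb interneurons and 0.0372 (0.0247–0.0538) in L6CT neurons. The interval of L6CT thus lay below those of both L5PT and Pvalb cells. In the opossum NEFH per NEFL was 0.115 over V1, 0.178 (0.137–0.228) in Pvalb interneurons, 0.126 in L5PT neurons and 0.0965 (0.0809–0.114) in IT_A neurons. INA per NEFL was 0.248 over V1 and was higher in L6CT neurons, at 0.375 (0.312–0.448), than in L5PT neurons, at 0.182 (0.126–0.257).

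Members did not share 1 order over subclasses. On log2 levels, r between NEFH and NEFL was 0.657 and between INA and NEFH 0.628 over the 14 opossum subclasses, and r between INA and NEFL was 0.219. Over the 17 mouse subclasses r was 0.535 between Ina and Nefh, 0.0793 between Nefl and Nefm, and -0.443 between Nefh and Nefl. All subclasses of an animal share 1 library, and small subclasses hold few UMIs, so these are descriptions.

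L5PT neurons, the pyramidal tract cells that heavy-chain antibodies classically mark, were compared with all other glutamatergic cells. In the opossum NEFL was 9.07 in 115 L5PT cells and 5.96 in the others, a fold of 1.52 (1.32–1.75). By region, L5PT cells ranged from 7.87 to 10.3 and the others from 5.73 to 6.15, without overlap. NEFH was 1.14 and 0.640, a fold of 1.79 (1.16–2.67) from 27 UMIs in L5PT cells. Its regions again did not overlap (1.02 to 1.29 and 0.611 to 0.661), but those of L5PT cells rest on 11, 13 and 3 UMIs. Without region 2 the fold of NEFL was 1.43. INA was 1.65 and 1.501, a fold of 1.10 (0.776–1.52), and its regions overlapped. So 2 of 3 opossum members reached 1.5-fold, where 11.3% of 7185 genes did, and 2 of 3 had no overlap of regions, where 7.07% of genes had none with L5PT higher.

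In the mouse the heavy chain had the highest fold of the members. Nefh was 0.641 in 262 L5PT cells and 0.293 in the other glutamatergic cells, a fold of 2.19 (1.46–3.18) from 32 and 215 UMIs. The fold was 2.31, 2.46, 1.99 and 1.96 in the 4 regions, from 9, 8, 8 and 7 UMIs in L5PT cells. By region L5PT cells ranged from 0.614 to 0.680 against 0.267 to 0.342. Ina was 1.82 and 1.07, a fold of 1.70 (1.35–2.11), with folds from 1.10 to 2.89 by region, no overlap of levels, and a fold of 1.36 without region 2. Nefl was 4.83 and 3.84, a fold of 1.26 (1.10–1.43) that ranged from 0.895 to 1.77 by region, and Nefm was 3.25 and 3.08, a fold of 1.05 (0.893–1.24). In all, 2 of 4 mouse members reached 1.5-fold, where 7.62% of 9811 genes did, and the same 2 had no overlap of regions, where 3.12% of genes had none with L5PT higher. Of all genes ranked by this fold, Nefh stood at percentile 98.9, Ina at 96.1, Nefl at 81.1 and Nefm at 60.5, and in the opossum NEFH stood at 94.8, NEFL at 89.4 and INA at 64.0.

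These folds changed once depth was matched. L5PT cells lay at a median depth of 0.713 of the column height (opossum) and 0.546 (mouse), and each was set against the other glutamatergic cells of its own depth bin. Mouse Nefh then had 32 UMIs where 26.8 were expected from its neighbours, a fold of 1.20 (0.817–1.69), and Nefm had 162 where 196 were expected, a fold of 0.828 (0.705–0.966). Mouse Nefl and Ina both stood at 1.37, with intervals of 1.20–1.55 and 1.10–1.68. In the opossum the folds were 1.37 (1.19–1.56) for NEFL, 1.27 (0.839–1.85) for NEFH and 1.18 (0.840–1.61) for INA. No member of either species reached 1.5-fold over cells of the same depth, where 12.3% of opossum and 11.0% of mouse genes did. Those shares are over genes with at least 100 UMIs, so they include genes with few UMIs in L5PT cells. Ranked by the matched fold, NEFL stood at percentile 82.0, NEFH at 77.0 and INA at 71.0. Mouse Ina stood at 84.4, Nefl at 84.2, Nefh at 73.6 and Nefm at 29.4. The intervals of NEFL in the opossum and of Nefl and Ina in the mouse stayed above 1.

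**Figure D2:**
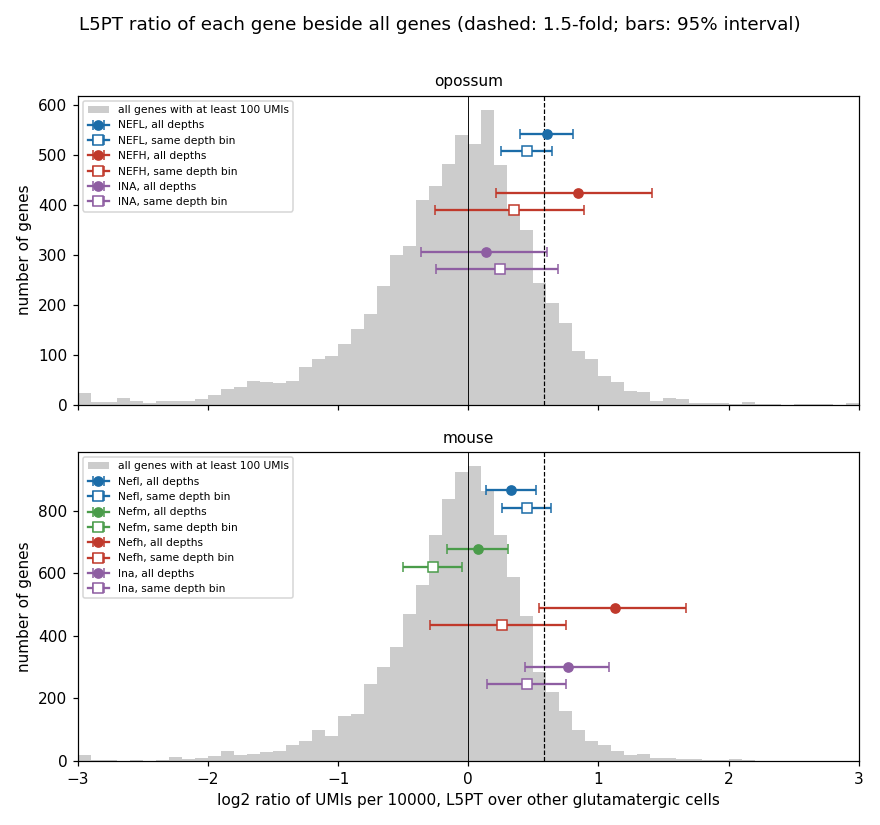
Log2 ratio of UMIs per 10000 in L5PT over other glutamatergic cells (horizontal axis) for each neurofilament gene, over all depths (filled circles) and against cells of the same depth bin (open squares), with 95% intervals, above a histogram of all genes with at least 100 UMIs (vertical axis, number of genes; dashed line, 1.5-fold). Mouse Nefh moves from 2.19-fold to 1.20-fold once depth is matched, and Nefl moves from 1.26-fold to 1.37-fold.

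Other cells beside L5PT cells also carried heavy-chain UMIs. Within the depth band that held the middle of the L5PT distribution, other mouse glutamatergic cells closer than 15 µm to an L5PT cell had Nefh at 1.16 (8 UMIs in 47 cells), those at 15 to 30 µm had 0.778, and those at 30 to 60 µm had 0.124 (1 UMI in 52 cells). Nefm in the same cells was 5.80, 4.39 and 4.20, and Nefl was 2.18, 4.06 and 3.83. The 15 opossum glutamatergic cells closer than 15 µm to an L5PT cell had NEFH at 2.80 from 7 UMIs and NEFL at 9.61, against 0.781 and 5.53 at 15 to 30 µm. At 30 to 60 µm both were higher again, at 1.12 and 7.93, and beyond 60 µm they were 0.791 and 4.98. The opossum levels thus did not fall steadily with distance. These counts are small, and the part of neighbouring cells' RNA in the levels of any 1 cell was not tested.

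Share of cells with a UMI showed the same limit in L5PT cells. NEFL was seen in 66.1% of opossum L5PT cells (median 1894 UMIs) and in 20.5% after thinning, against 16.8% of thinned non-neuronal cells, and Nefl was seen in 47.3% of mouse L5PT cells and in 11.1% after thinning, against 8.64%. After thinning, Nefh was seen in 1.53% of mouse L5PT cells against 0.852% of non-neuronal cells, and NEFH in 2.68% of opossum L5PT cells against 2.31%. The opossum L5PT share rests on 3 of 112 cells (0.556–7.63), too few to show whether the groups differed. Among opossum cells non-neuronal by both labels the share was 1.90%.

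Across the depth of V1, the members had different profiles. The light chain of the opossum had 2 peaks, at 8.30 in bin 3 and 8.14 in bin 8, with 5.20 in bin 1 and 4.30 in bin 10. Bin 3 was above bin 4 (6.55) by 1.27-fold (1.10–1.46) and above bin 1 by 1.60-fold (1.39–1.84), and bin 8 was above bin 10 by 1.89-fold (1.66–2.17). In each of these 3 pairs every region of the higher bin was above every region of the lower, as was so for 5.32%, 6.55% and 10.5% of genes with at least 500 UMIs. The pairs of bins given here and below, in both species, were picked after the profiles were seen. The shares over all genes are for the same pairs of bins and do not allow for that choice.

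Opossum NEFH lay deep. It went from 0.471 in bin 1 to 1.10 in bin 8, where 11.1% of cells were L5PT, and back to 0.628 in bin 10. Its UMIs lay on average 0.0398 of the column height below those of all genes, with 0.0282 to 0.0491 in the 3 regions, and its level in the deeper part of V1 (depth above 0.5) was 0.854 against 0.625 above it, a fold of 1.37 (1.14–1.64). INA was nearly flat from bin 2 down, at 1.51 to 1.92, after 0.985 in bin 1, and its shift was 0.0125, with regions on both sides of 0. NEFL had a shift of -0.00549. So 1 of 3 opossum members lay deeper than all UMIs by at least 0.03 of the height, where 18.9% of genes did, and 0 lay as much shallower, where 17.9% did.

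The mouse heavy chain peaked in the middle of the column. Nefh was 0.245 in bin 1, 0.608 in bin 6, where 20.4% of cells were L5PT, and 0.0984 in bin 10. Bin 6 was above bin 10 by 6.18-fold (3.41–12.1), from 77 and 13 UMIs, with 0.509 to 0.649 against 0.0406 to 0.165 by region, and no overlap of regions was found for 3.94% of genes with at least 100 UMIs in that pair. It was above bin 4 by 2.72-fold (1.77–4.26), also with no overlap (3.77% of genes). Both pairs were picked from this profile, which the shares of genes do not allow for. The shift of Nefh was -0.0365, with regions from -0.0776 to 0.0127, so its direction was not the same in each region.

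Mouse Nefl and Nefm shared an upper peak. From bin 4 to bin 3, Nefl went from 3.45 to 4.81, a fold of 1.40 (1.24–1.58), and Nefm from 2.62 to 4.07, a fold of 1.55 (1.36–1.78). Every region of bin 3 was above every region of bin 4 for both genes, as was so for 1.98% of genes with at least 500 UMIs. Bin 3 was above bin 1 by 1.21-fold (1.07–1.38) for Nefl, with overlap of regions. For Nefm it was 1.62-fold (1.39–1.89) without overlap, as for 2.51% of genes with at least 500 UMIs. Nefm had a lower second peak of 3.51 in bin 6, where its regions overlapped those of bin 4, and stood at 2.17 in bin 10. Nefh also stood at 0.393 in bin 3 against 0.224 in bin 4, but its regions overlapped.

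Ina was the deep member in the mouse. It ran between 0.817 and 1.06 in bins 1 to 5 and between 1.27 and 1.55 in bins 6 to 10, and bin 9 was above bin 4 by 1.90-fold (1.51–2.40) with no overlap of regions, where 4.24% of genes with at least 100 UMIs had none. Its shift was 0.0429, with 0.0174 to 0.0696 in the 4 regions, and its level below the middle of the column was 1.40 against 0.979 above it, a fold of 1.43 (1.29–1.59). So 1 of 4 mouse members lay deeper than all UMIs by at least 0.03 (13.6% of genes) and 1 of 4, Nefh, lay shallower by as much (15.8% of genes).

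**Figure D3:**
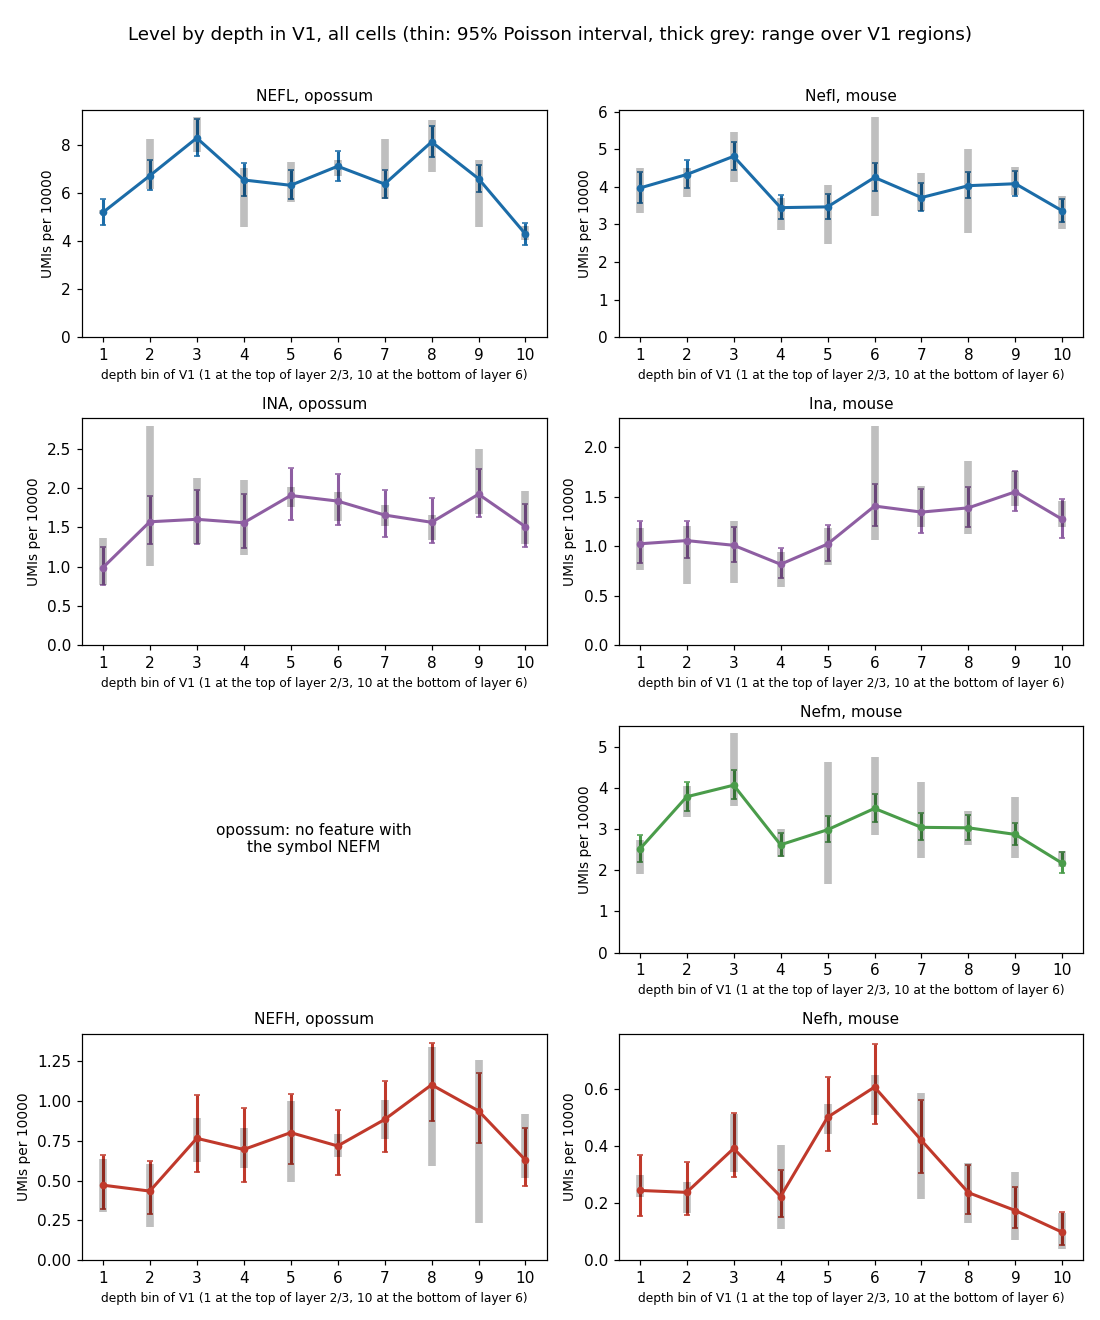
Level of each neurofilament gene (UMIs per 10000, vertical axis) in all V1 cells by depth bin (horizontal axis, 1 uppermost), with thin bars for the 95% Poisson interval and thick grey bars for the range over the V1 regions. Opossum NEFL peaks at 8.30 and 8.14 in bins 3 and 8, and mouse Nefh peaks at 0.608 in bin 6.

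Several of these profiles were also seen in cells labelled as non-neuronal. The levels by bin took these cells by subclass label, and 649 of the 1257 opossum cells were non-neuronal by both labels. In the opossum, NEFL was 8.15 in glutamatergic and 8.87 in non-neuronal cells of bin 3, 8.10 and 8.80 in bin 8, and 3.98 and 4.79 in bin 10. Mouse Ina went from 0.855 in bin 4 to 1.43 in bin 9 in glutamatergic cells and from 0.694 to 1.63 in non-neuronal cells. The shift of Nefh was -0.0268 in glutamatergic and -0.0953 in non-neuronal cells of the mouse, and that of NEFH 0.0476 and 0.0339 in the opossum. Nefh had only 57 UMIs in all mouse non-neuronal subclasses together. Nefm was an exception in bin 6 of the mouse, where it was 4.01 (3.56–4.50) in glutamatergic cells and 1.92 (1.35–2.66) in non-neuronal cells, while in bin 3 the values were 4.07 and 4.68.

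**Figure D4:**
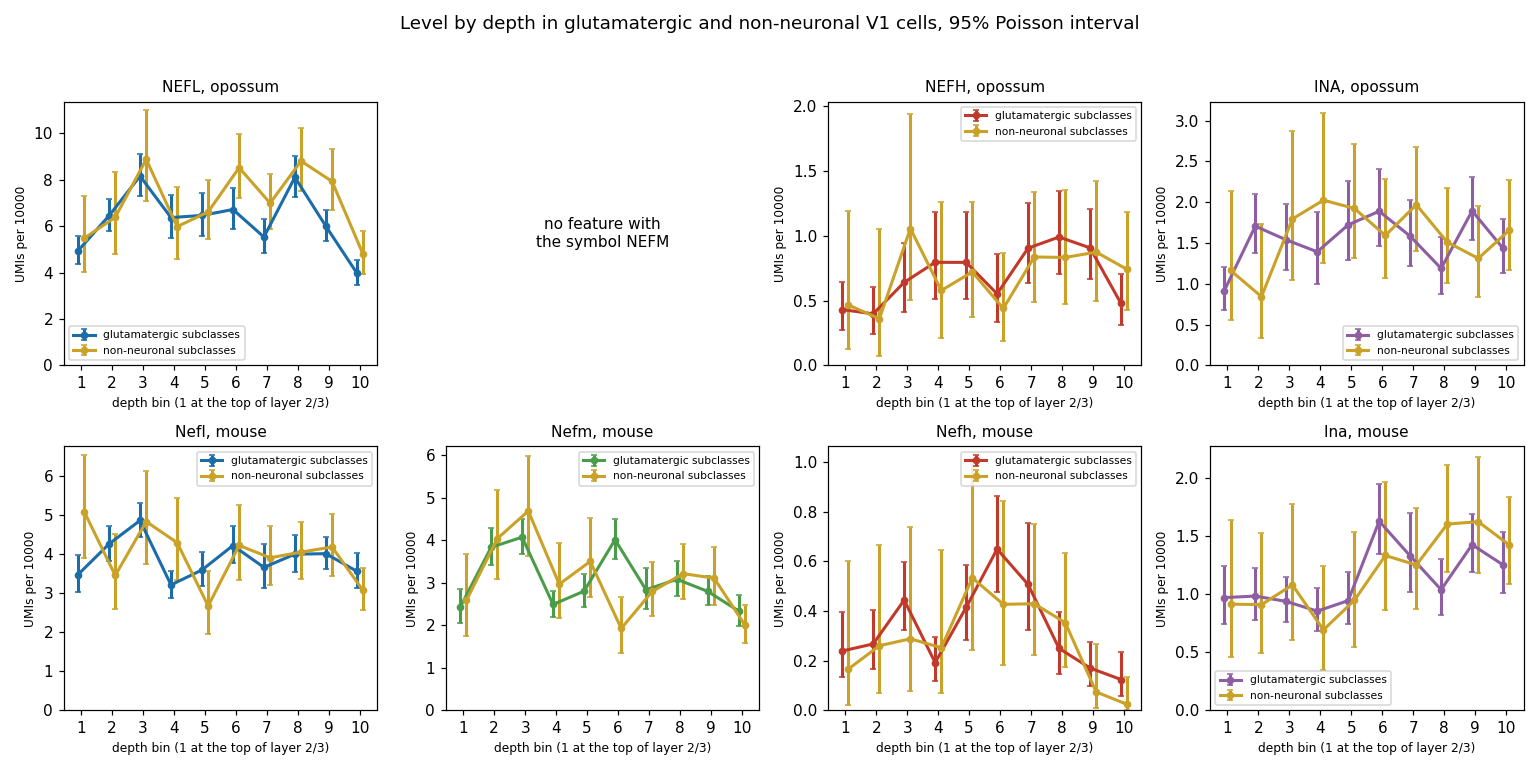
Level of each neurofilament gene (UMIs per 10000, vertical axis) by depth bin (horizontal axis, 1 uppermost) in glutamatergic subclasses (coloured) and non-neuronal subclasses (ochre), with 95% Poisson intervals. The lines run close together for most genes and depths, and mouse Nefm in bin 6 is 4.01 in glutamatergic and 1.92 in non-neuronal cells.

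Genes that work with neurofilaments were taken from a list of 43: other intermediate filaments, linkers, microtubule proteins, the membrane skeleton, motors, kinases and turnover factors, and proteins of the axon and myelin interface. In the opossum 29 were found, and of the 26 with at least 100 UMIs in glutamatergic cells 3 were at least 1.5-fold higher in L5PT cells (11.3% of all genes were) and 1 was as much lower (19.3% of all genes were), with a median fold of 1.08. Those higher were Stmn3, a stathmin that regulates microtubules, at 1.73 (1.32–2.23), Nfasc, a node and initial segment adhesion protein, at 1.66 (1.30–2.08), and Plec, the linker plectin, at 1.65 (1.00–2.58). Dctn1, a subunit of dynactin, was lower at 0.660 (0.428–0.976). In the mouse all 43 were found, and of 40 with enough UMIs 0 were higher (7.62% of all genes were) and 1 was lower (14.3% of all genes were), Synm, the intermediate filament protein synemin, at 0.292 (0.0596–0.870), with a median fold of 1.03. Map1b, a microtubule-associated protein of axons, was 1.46 (1.33–1.61) in the opossum and 1.28 (1.14–1.42) in the mouse. Peripherin (Prph), the neuronal intermediate filament of peripheral neurons, had 1 UMI in V1 of the opossum and 26 in that of the mouse.

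By depth, 8 of 28 related genes in the opossum lay deeper than all UMIs by at least 0.03 of the height and 3 lay shallower, against 18.9% and 17.9% of all genes. In the mouse 6 of 41 lay deeper and 2 shallower, against 13.6% and 15.8% of all genes. Map1b lay deeper in both species, by 0.0651 in the opossum and 0.0309 in the mouse, as did Kif5b, a kinesin heavy chain that carries cargo along axons, by 0.0529 and 0.0357. Vim, vimentin, and Cdk5r1, an activator of a kinase that acts on neurofilaments, lay shallower in both, with opossum shifts of -0.139 and -0.0304 and mouse shifts of -0.0301 and -0.0338.

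The genes with the pattern most like each member were found by Pearson's r of log2 levels over subclasses, among named genes with at least 500 UMIs in V1. For opossum NEFL, over 14 subclasses, the closest was STMN2, a neuronal stathmin, with r of 0.870, followed by IP6K2, SDHA, OGA and RPL9 with 0.788 to 0.779. The gene closest to opossum NEFH was EIF4E (0.835) and the gene closest to INA was EHD3 (0.953). In opossum microglia NEFH and INA had 1 UMI each, and the weight of that subclass in these r values was not tested. In the mouse, over 17 subclasses, the closest were Asph to Nefl (0.847), Acsl5 to Nefm (0.788), Diaph2 to Nefh (0.844) and Atp6ap1 to Ina (0.651). None of the 5 closest genes of any member was another member. Mouse Nefh, with 388 UMIs in V1, was under the limit of 500 and could not have been listed.

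**Figure D5:**
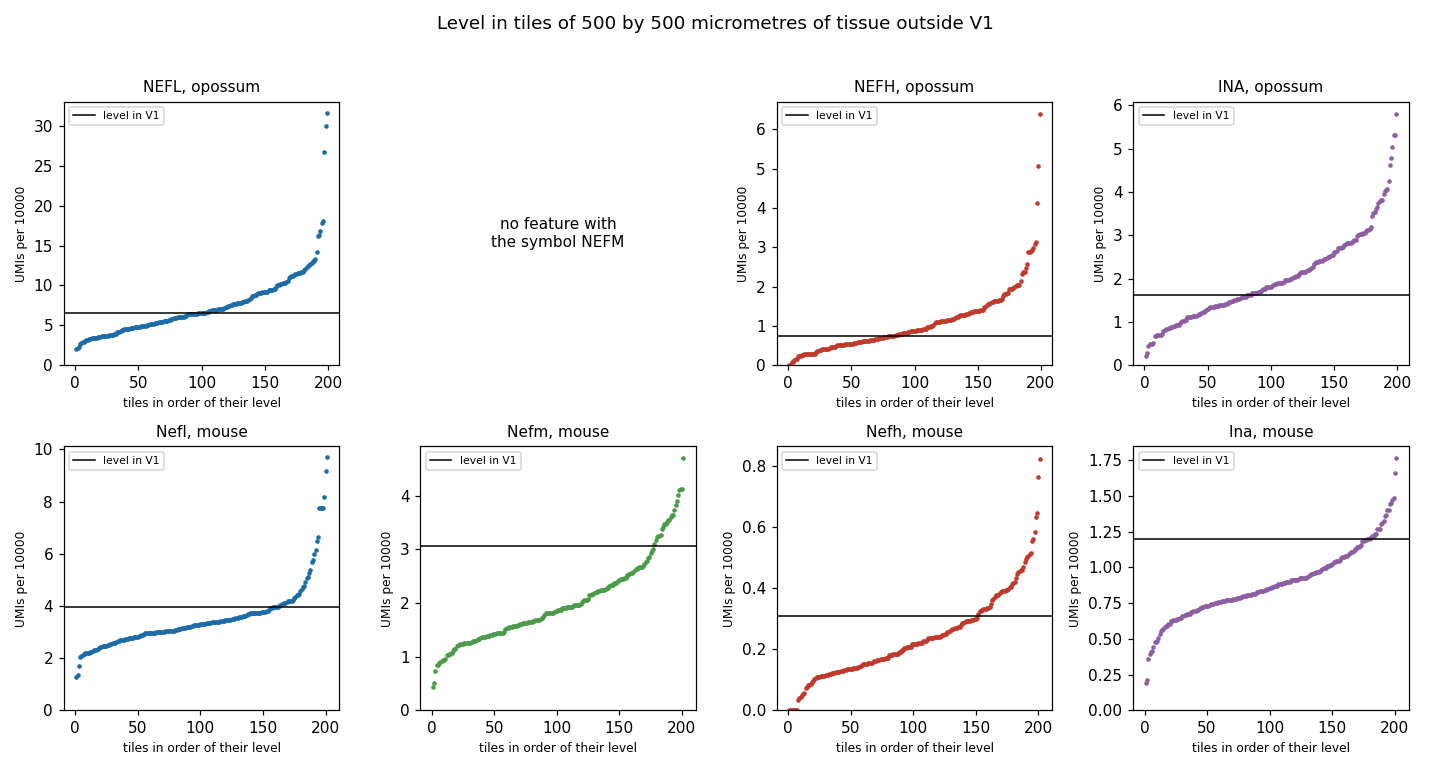
Level of each neurofilament gene (UMIs per 10000, vertical axis) in tiles of 500 by 500 µm of tissue outside V1, 1 point per tile with at least 50 cells, in order of level (horizontal axis), with a line at the V1 level. Opossum NEFL runs from 2.03 to 31.5 over 199 tiles around a V1 level of 6.51, and mouse Nefm runs from 0.439 to 4.71 over 201 tiles around a V1 level of 3.06.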

How the data were processed

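Stereo-seq was run on 1 section per species. The authors deposited UMI counts per gene and segmented cell, without normalization, with labels for V1 region, quality filter, class and subclass. Per their methods, reads were processed with the Stereo-seq Analysis Workflow, the opossum on a custom genome with extended gene ends and the mouse on GRCm39, the build also in the submitters' notes. Class and subclass came from nearest neighbours in nuclei of the same species in 3 rounds.

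V1 cells that passed the authors' filter were used (14 opossum and 7 mouse cells failed), and subclasses with at least 25 cells; 242 opossum and 1474 mouse cells had no subclass label and entered only values over all V1 cells. UMIs were summed over cells and divided by all UMIs, per 10000. Intervals at 95% are exact Poisson for levels, exact Clopper-Pearson for shares and exact conditional for ratios. A gene was counted as called at 1.5-fold, or at a depth shift of 0.03 of column height, each cell weighted to the same total; log2 levels for correlations used a pseudocount of 0.1. There were 2 spatial units per µm. No test was run, as each group has 1 animal. Opossum and mouse cells shared 0 names as deposited. No doublet caller was run, since segmented cells are areas of a section. Alternatives changed the cell filter, depth, denominator, averaging, labels, regions and limits. Named genes were the members, the list of related genes, cell type markers and the 5 genes most like each member. The members and lists were chosen with earlier results of these data known. The scripts were tested on simulated data. Python 3.11.15 was used with scipy 1.17.1, numpy 2.4.6, matplotlib 3.10.9 and pandas 2.3.3.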

Additional observations from a re-analysis of the deposited data

Results flagged for a closer look

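Neurofilament UMIs were also present outside V1, in tissue that the comparisons above did not use. In the rest of the opossum section, 74531 cells with at least 50 genes and 100 UMIs held NEFL at 8.17 per 10000, NEFH at 1.18 and INA at 2.23, which was 1.25, 1.57 and 1.38 times the V1 level. In the rest of the mouse section Nefl stood at 3.71, Nefm at 2.14, Nefh at 0.257 and Ina at 0.913, or 0.940, 0.697, 0.831 and 0.763 times the V1 level. The labels used here do not name these areas.

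Several contrasts pointed opposite ways in opossum and mouse, and none of these differences between species was tested. The level of Nefl in GABAergic over glutamatergic cells had a log2 ratio of 0.18 (0.046 to 0.31) in the opossum. In the mouse it was -0.22 (-0.43 to -0.0098), though mouse region 4 went the other way, at 0.17. Glutamatergic over non-neuronal cells gave log2 ratios of -0.10 (-0.42 to 0.23) and 0.29 (-0.13 to 0.73) for Nefh, in that order. Both of these intervals took in values of either sign. For Nefl the ratios were -0.20 (-0.31 to -0.10) and 0.022 (-0.088 to 0.13), so only the opossum interval kept to a single sign. With non-neuronal cells named so by both labels, the log2 ratios for Nefl were -0.13 (-0.26 to 0.0057) and 0.060 (-0.058 to 0.18). Those for Ina were 0.091 (-0.20 to 0.39) and -0.16 (-0.37 to 0.054). Every interval by both labels took in values of either sign, so these directions are not settled by the counts.

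The heavy chain lay deep in the opossum, and its direction in the mouse was not settled. Nefh in the deeper over the upper part of V1 had a log2 ratio of 0.45 (0.19 to 0.71) in the opossum. In the mouse it was -0.12 (-0.41 to 0.18), from 194 and 194 UMIs, an interval with values of either sign. Its UMIs lay 0.0398 of the height deeper than all UMIs in the opossum, while the shift was -0.0365 in the mouse. Only the opossum shift had the same sign in every region.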

How the results depend on the processing

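The count of members at least 1.5-fold higher in L5PT cells, 2 in each species, changed in some settings. In the opossum it was 0 with cells thinned to 300 UMIs, 0 within the same depth bin, 0 at a limit of 2-fold, 1 as a mean over cells and 1 with first-round labels. In the mouse it was 0 within the same depth bin and 1 at 2-fold. With each region left out it ranged from 1 to 2 in both species, and it was 1 without region 2 in each, where opossum NEFL stood at 1.43-fold and mouse Ina at 1.36-fold. The count of members lying deeper by at least 0.03, 1 in each species, was 0 in both at a limit of 0.05, and ranged from 0 to 1 in the opossum, with 0 without region 2, and stayed at 1 in the mouse as regions were left out. Of 1335 other values under alternatives, 1231 stayed within their counting interval or, for shifts and correlations, within the spread over regions, 102 moved further, and 2 of those past 1.5-fold changed sign, both in the Pvalb contrast of the mouse: the log2 ratio of Nefh was -0.0063 with thinned cells and that of Ina -0.66 with first-round labels. The cause was not tested. The denominator without the 10 genes with most UMIs, and the non-neuronal cells named by both labels, were chosen after seeing the data. First-round subclasses under 25 cells gave no value. No paired analysis was possible because each species has 1 sample. Depth limits Nefh most, with 520 UMIs in opossum and 388 in mouse V1.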

Other observations

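Tissue outside V1 was divided into tiles of 500 by 500 µm, and those with at least 50 cells were kept (199 in the opossum and 201 in the mouse). Opossum NEFL ran from 2.03 to 31.5 per 10000 over tiles, with a median of 6.57, and 12 tiles (6.03%) were above 2 times the V1 level. NEFH passed that mark in 43 tiles (21.6%) and INA in 20 (10.1%). The tile with the most NEFL held 333 cells and had NEFL at 31.5 (29.7–33.4), NEFH at 5.07 and INA at 5.31, so all 3 genes were high in it. Mouse tiles reached 9.70 for Nefl, 4.71 for Nefm, 0.824 for Nefh and 1.77 for Ina, and 3 tiles passed 2 times the V1 level for Nefl, 4 for Nefh and 0 for Nefm and Ina.

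Over opossum tiles the members were high together, with r of 0.867 for NEFH and NEFL (rho 0.758), 0.852 for INA and NEFL (rho 0.853) and 0.807 for INA and NEFH (rho 0.775). Over mouse tiles r was 0.580 for Nefl and Nefm (rho 0.626), 0.426 for Nefh and Nefm (rho 0.397) and -0.0172 for Ina and Nefl (rho 0.0318). All tiles of an animal share 1 library and neighbouring tiles share structures, so these are descriptions.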
